A study of Mus musculus with 9 samples.

Results

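Acute phase serum proteins are secreted proteins, mostly made by hepatocytes, whose blood levels change with inflammation or tissue damage. The genes described here are Saa1, Saa2 and Saa3 (serum amyloid A), Orm1, Orm2 and Orm3 (orosomucoids, also called alpha-1-acid glycoproteins), Hp (haptoglobin), Hpx (hemopexin), Lcn2 (lipocalin 2) and Apcs (serum amyloid P component). They were chosen by name, with earlier results of these data known, and all 10 were found among the 21873 genes of the table. The samples are liver RNA from 9 male mice of the C57BL/6 strain, in 3 groups of 3 mice with 1 library per mouse. The control group received saline by intraperitoneal injection for 8 weeks. The TAA group received thioacetamide, a compound that damages hepatocytes and causes liver fibrosis, by the same route for 8 weeks. The recovery group received thioacetamide for 8 weeks and was then left without injections for another 8 weeks. In the control and TAA groups the livers were taken some days after the last injection. The recovery mice were 8 weeks older at collection than the others, and no control group of their age was analysed here, so recovery and age cannot be told apart.

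In the acute phase response, interleukin 6 and related cytokines signal through receptors that share gp130 (Il6st) to the transcription factor Stat3, while interleukin 1 and tumor necrosis factor signal to NF-kB. C/EBP factors take part in the induction of many of these genes in hepatocytes. Proteins that rise are called positive acute phase proteins, and proteins that fall, such as albumin, are called negative ones.

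Levels are given as FPKM, which corrects the fragments of a gene for its length and for the depth of the library, divided by 1 scaling factor per library and called scaled FPKM. The factors ranged from 0.827 to 0.878 for control mice, 1.29 to 1.38 for TAA mice and 0.893 to 0.907 for recovered mice. The depth estimated from the steps between low values was 26.7 to 40.7 M fragments per library. A gene was called at an FDR under 0.05 and a fold change of at least 2, over the 14094 genes whose mean FPKM reached 0.1. All 10 genes passed this filter. The fold changes are on the scale log2(scaled FPKM + 0.1), which understates the change of genes with low FPKM. In bulk liver, fewer hepatocytes and less RNA per hepatocyte cannot be told apart.

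The 3 control libraries differed from each other in these genes, and the counts given here were picked after they had been seen. Control 3 was the highest control library for 7 of the 10 genes, whereas it was the highest for 31.0% of all tested genes. Control 1 was the lowest control library for 8 of the 10 genes, and for 37.3% of all tested genes. In the other groups, recovery 1 was the lowest library for 6 of the 10 genes (36.9% of all tested genes). TAA 1 was the lowest for 5 of the 10 genes (27.0%). The 10 genes are not independent of each other, so these counts are a description. Control 1 had a scaled FPKM of 7.10 for Trem2 and 22.2 for Gpnmb, genes of lipid-associated macrophages. The other control libraries had 0.302 and 0.389 for Trem2 and 0.188 and 0.102 for Gpnmb. Control 1 was also low for the Kupffer cell genes Clec4f (13.8, against 32.3 and 36.2) and Cd5l (13.6, against 50.5 and 51.2). These 4 macrophage genes were singled out after their values were seen.

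**Figure D1:**
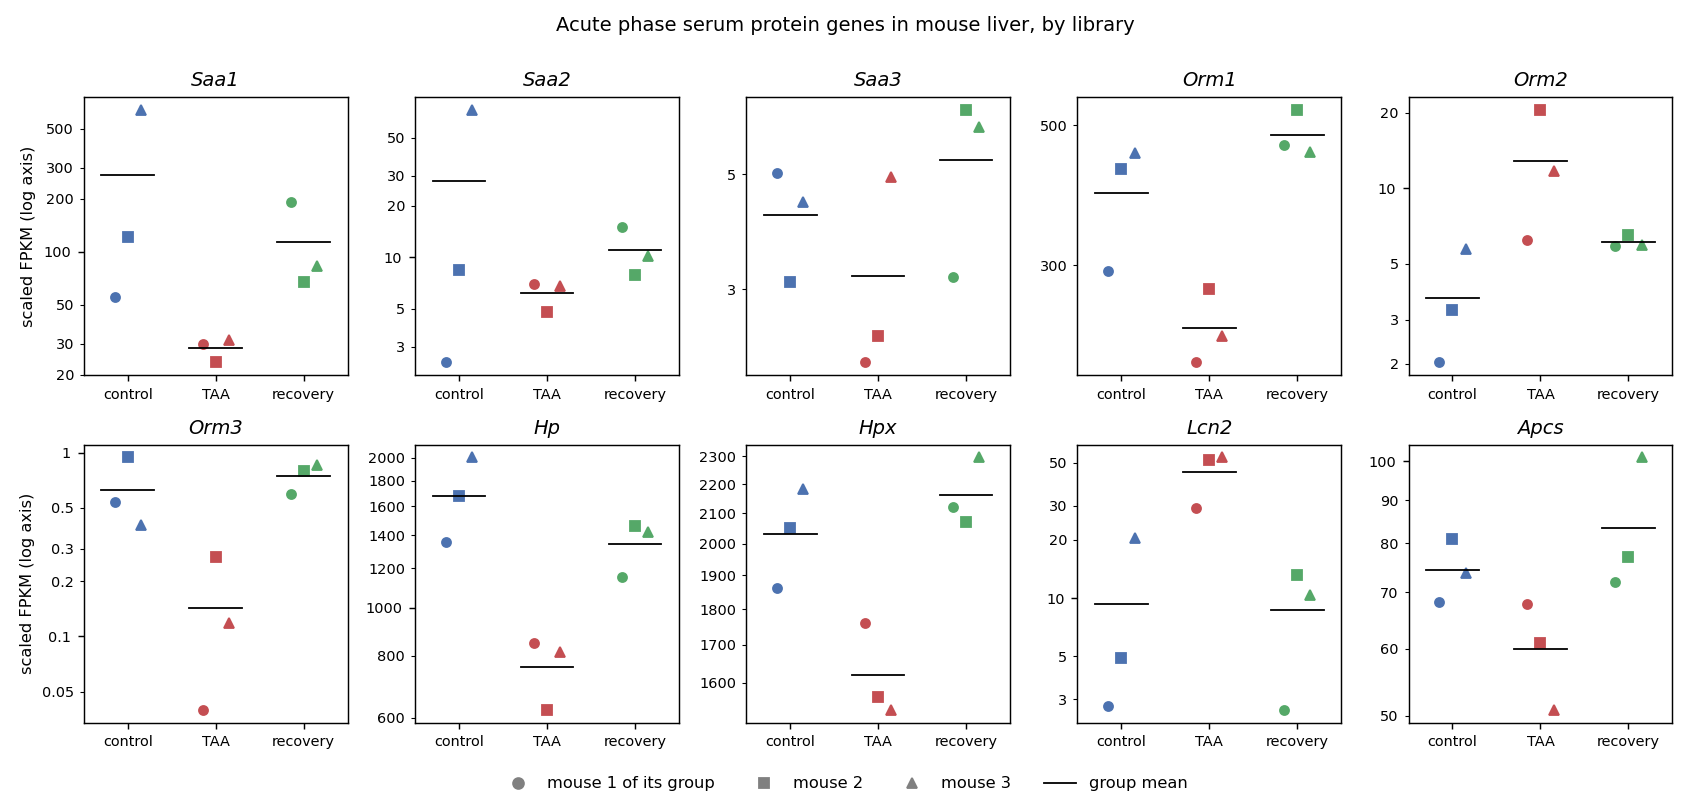
Scaled FPKM of the 10 genes on log axes, with 1 point per mouse, the symbol giving the mouse number within its group and the line the group mean. Saa1 was at most 31.5 in the TAA libraries and at least 55.1 in the control and recovery libraries, and control 3 reached 639.

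The serum amyloid A genes lie in a cluster on chromosome 7. Saa1 (ENSMUSG00000074115, mm10 46740497 to 46742980, minus strand) and Saa2 (ENSMUSG00000057465, 46751790 to 46754313, plus strand) are transcribed away from each other, and Saa3 (ENSMUSG00000040026) spans 46711998 to 46715700 on the minus strand. The transcripts of Saa1 and Saa2 were 93.9% identical, with a longest identical stretch of 99 bases. No window of 150 bases was shared by these 2 transcripts. Shorter shared stretches remain, so the division of reads between them is uncertain. Saa3 was 57.4% identical to Saa1.

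The RefSeq promoter table (GRCm38.p6) held 8 of the 10 genes, with no entry for Orm1 and Hp. The promoters of Saa1, Saa2, Orm2 and Orm3 are shown because they let the reader compare close paralogs, of which Orm2 and Orm3 were called in opposite directions after thioacetamide. Each stretch runs from 200 to 51 bases before the start, 5′ to 3′ on the gene's own strand. The start is that of the promoter table, which lies 43 bases inside the gene span given above for Saa2 and 513 bases inside the gene span of Lcn2 given below. For Saa3 and Hpx it lies 24 and 21 bases inside the gene span, and for Orm3 and Apcs a few bases outside it. The capitals mark matches to TTGCNNAA, a C/EBP type motif, on either strand.

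Saa1 (chr7:46743031-46743180, minus strand): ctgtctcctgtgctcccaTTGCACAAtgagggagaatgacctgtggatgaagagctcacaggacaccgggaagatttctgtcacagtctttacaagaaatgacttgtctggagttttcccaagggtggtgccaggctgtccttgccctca
Saa2 (chr7:46751633-46751782, plus strand): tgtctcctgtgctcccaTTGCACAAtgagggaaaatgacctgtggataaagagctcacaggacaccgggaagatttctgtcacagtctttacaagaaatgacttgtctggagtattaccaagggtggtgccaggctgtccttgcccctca
Orm2 (chr4:63362249-63362398, plus strand): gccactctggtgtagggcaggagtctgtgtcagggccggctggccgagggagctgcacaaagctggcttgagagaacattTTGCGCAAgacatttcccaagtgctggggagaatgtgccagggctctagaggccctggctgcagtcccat
Orm3 (chr4:63355958-63356107, plus strand): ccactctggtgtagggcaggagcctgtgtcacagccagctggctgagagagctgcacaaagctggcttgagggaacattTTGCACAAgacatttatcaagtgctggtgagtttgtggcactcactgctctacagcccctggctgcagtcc

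Over the 250 bases before the start, the promoters of Saa1 and Saa2 were 94.8% identical and those of Orm2 and Orm3 85.5%. The motif TTGCNNAA was present in this window in Saa1, Saa2, Saa3, Orm2, Orm3, Hpx and Lcn2, and 9.56% of the 32851 promoters in the table held it. For Lcn2 the whole window lies within the annotated gene. The motif began 182 bases before the start in Saa1 and 120 in Orm2. Apcs held TTCNNNGAA, a STAT type motif (7.02% of promoters), and CTGGGAA, an interleukin 6 type motif (9.10%), and the other 7 promoters held neither. No match to the NF-kB consensus was found in these 8 windows (7.25% of promoters). The 4 motifs were chosen after the sequences had been seen, and a match is a description of letters.

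The comparison of TAA with control mice shows these genes in a liver with fibrosis. With thioacetamide, Lcn2 and Orm2 were called higher than in control mice, and Saa1, Orm3 and Hp were called lower. The 2 genes called higher compare with 17% of all tested genes called higher, and the 3 called lower with 8.02% called lower. The median log2 fold change was -0.57 over the 10 genes and 0.020 over all tested genes. The value of -0.57 holds for the scaling used here. With quantile normalization Orm1, Hp, Hpx and Apcs were positive (0.46, 0.32, 1.18 and 0.31), as were Lcn2 and Orm2. Most of the 10 genes were then above 0, while the median over all genes was -0.050. Scaling mattered here, since the median over all genes was 0.63 with FPKM as deposited and 0.81 with the same total per library. All directions are therefore relative to the median gene. Lcn2 and Orm2 were called higher with each of the 4 scalings, while Saa1 and Hp were called lower only with the scaling used here. Hp had the opposite sign (0.32) with quantile normalization, and Orm3 was not called with the same total per library (-1.08).

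Saa1, the main acute phase serum amyloid A of mouse liver together with Saa2, had a scaled FPKM of 55.1, 121 and 639 in the control libraries. It had 29.9, 23.5 and 31.5 in the TAA libraries and 191, 67.5 and 83.1 in the recovery libraries. All TAA libraries were below all others, and control 3 was far above the other controls. The ratio of the highest to the lowest control library was 11.6, and 0.288% of the 11101 genes with a mean FPKM of 1 or more had a larger SD of log2 values among controls.

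Saa1 fell by 2.52 on the log2 scale after thioacetamide (standard error 0.77, n = 3 per group, adjusted p = 0.0259). This call was fragile. It was lost with FPKM as deposited (-1.89, adjusted p = 0.0613), the same total per library (-1.70, adjusted p = 0.0717), quantile normalization (-1.93, adjusted p = 0.0581) and no filter on low FPKM (adjusted p = 0.0628). It was also lost without TAA 1, TAA 2 or TAA 3 (adjusted p = 0.0625, 0.0750 and 0.0693). Without control 3 the value was -1.53 and without control 1 it was -3.30, and both were called. The value was negative in all 17 alternatives, with an adjusted p from 0.00507 to 0.291 over them. Recovered mice were 1.86 above TAA mice (standard error 0.35, adjusted p = 0.00318), and this call was lost with all 9 libraries in 1 fit (adjusted p = 0.0617) and in a limma test for changes beyond 2-fold, called treat (0.189, range over the alternatives 7.00e-04 to 0.189), and was 1.41 without recovery 1. It was 1.30 with FPKM as deposited, 1.10 with the same total per library and 1.43 with quantile normalization, and called with each.

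Saa2 had 2.43, 8.42 and 72.9 in the control libraries, 7.01, 4.80 and 6.77 in the TAA libraries and 15.1, 7.90 and 10.2 in the recovery libraries. The highest control was 30.1 times the lowest, and all TAA and recovery libraries lay inside that range. The log2 difference between TAA and control mice was -0.90 (95% interval -3.36 to 1.55, adjusted p = 0.495), and it was 0.42 without control 3 and -2.01 without control 1. It was -0.28 with FPKM as deposited, -0.090 with the same total per library and -0.83 with quantile normalization. Between recovered and TAA mice it was 0.79 (adjusted p = 0.0275, under a fold change of 2), and without recovery 2 it was 1.01 and called. The latter difference was 0.24 with FPKM as deposited and 0.040 with the same total per library.

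Saa3, which is expressed mainly outside hepatocytes, by macrophages and adipocytes, stayed between 2.17 and 6.66 over the 9 libraries. It was not called in any comparison. Between TAA and control mice its log2 difference was -0.45 (95% interval -1.20 to 0.30), with -0.81 to -0.23 in the fits that left out 1 library, and it was 0.17 with FPKM as deposited and 0.35 with the same total per library. Between recovered and TAA mice it was 0.75 (adjusted p = 0.124), and it was called without TAA 3 (1.11) and without recovery 1 (1.08). It was 0.21 with FPKM as deposited and 0.0074 with the same total per library.

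The ratio of Saa2 to Saa1 within a library is the same with any scaling by a factor per library, but not with quantile normalization. It was 4.40%, 6.96% and 11.4% in the control libraries, 23.4%, 20.4% and 21.5% in the TAA libraries and 7.88%, 11.7% and 12.3% in the recovery libraries. The TAA libraries lay above all others and close together. On the log2 scale the TAA group was 1.62 above the control group (2-sided exact permutation p = 0.10, adjusted p = 0.188 over 15 tests), and 0.10 is the smallest p that 3 against 3 libraries allow. No ratio can therefore pass the threshold. The difference between recovered and TAA mice was -1.06 (exact permutation p = 0.10, adjusted p = 0.188). With quantile normalization these differences were 1.10 and -0.70, again with no overlap (exact permutation p = 0.10, adjusted p = 0.167). The ratio of Saa3 to Saa1 overlapped between all groups (exact permutation p = 0.20, 0.30 and 0.60).

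**Figure D2:**
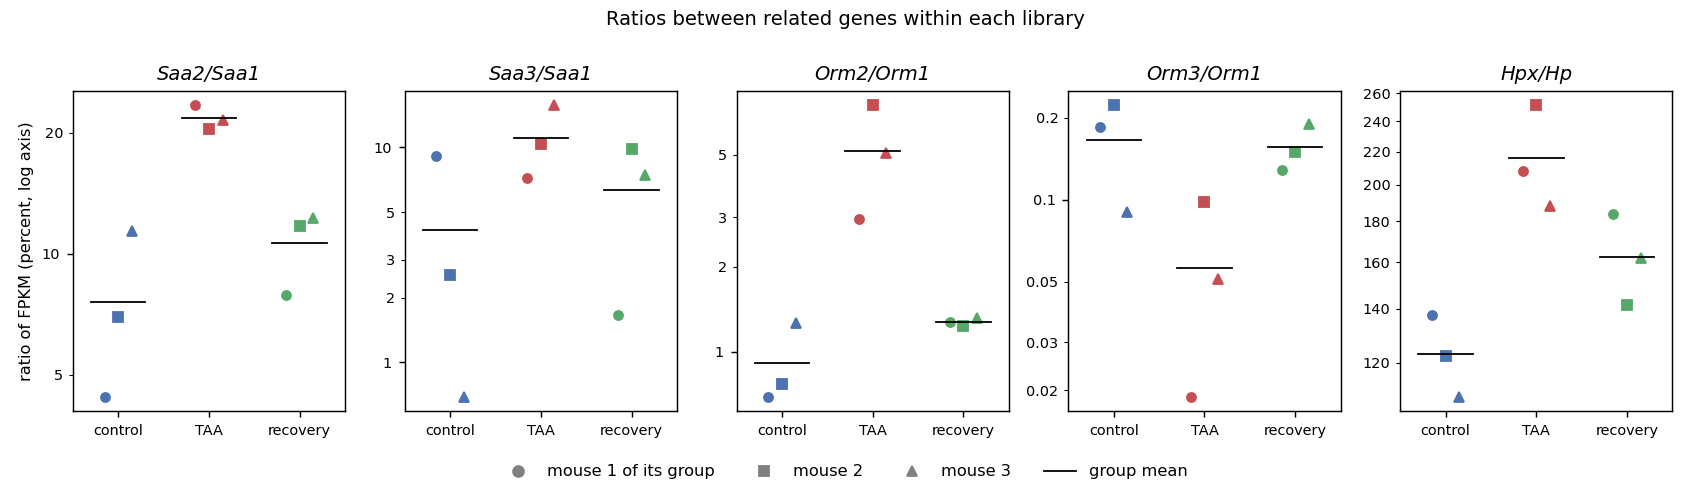
Ratio of the FPKM of related genes within each library, in percent on log axes, with 1 point per mouse and lines for group means. The Saa2 to Saa1 ratio was 20.4% to 23.4% in the TAA libraries and at most 12.3% elsewhere.

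The orosomucoid genes lie within 21.3 kb on chromosome 4, all on the plus strand, in the order Orm1 (ENSMUSG00000039196, 63344560 to 63348163), Orm3 (ENSMUSG00000028359, 63356162 to 63359511) and Orm2 (ENSMUSG00000061540, 63362449 to 63365878). The transcripts of Orm1 and Orm2 were 91.0% identical, with a longest identical stretch of 141 bases, so some reads may be assigned to the wrong gene of the pair. Orm1 and Orm3 were 86.1% identical. Orm1 had by far the highest level per length of the 3 genes.

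Orm1 had a scaled FPKM of 293, 425 and 451 in the control libraries, 210.3, 275 and 231.5 in the TAA libraries and 465, 529 and 454 in the recovery libraries. The TAA libraries were below all others. The log2 difference between TAA and control mice was -0.69 (95% interval -1.12 to -0.26, adjusted p = 0.0148, under a fold change of 2). It was -0.053 with FPKM as deposited, and its sign turned with the same total per library (0.14) and with quantile normalization (0.46). Recovered mice were 1.02 above TAA mice (standard error 0.13, adjusted p = 4.39e-04), just past the fold threshold. This call was lost with FPKM as deposited (0.46), the same total per library (0.26), without TAA 1 (0.93) and without recovery 2 (0.95), and the sign turned with quantile normalization (-0.095, adjusted p = 0.588, range over the alternatives 4.21e-04 to 1).

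Orm2 had 2.03, 3.27 and 5.71 in the control libraries, 6.21, 20.6 and 11.7 in the TAA libraries and 5.90, 6.53 and 5.97 in the recovery libraries. All TAA libraries were above all control libraries, and TAA 1 lay among the recovery libraries. After thioacetamide Orm2 rose by 1.74 (standard error 0.48, adjusted p = 0.0176), with a positive value in all 17 alternatives (1.32 to 2.55, adjusted p from 0.00182 to 0.494). The rise was not called without control 1 (1.38, adjusted p = 0.0507), TAA 2 (1.32, adjusted p = 0.0517) or TAA 3 (1.72, adjusted p = 0.0592). Between recovered and TAA mice the log2 difference was -0.89 (adjusted p = 0.0760). That difference was called with FPKM as deposited (-1.45), with the same total per library (-1.65) and without TAA 1 (-1.33), and it was -0.47 without TAA 2.

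The ratio of Orm2 to Orm1 was 0.691%, 0.769% and 1.27% in the control libraries, 2.95%, 7.48% and 5.07% in the TAA libraries and 1.27%, 1.23% and 1.31% in the recovery libraries. The TAA libraries did not overlap with the others. On the log2 scale TAA mice were 2.46 above control mice and recovered mice differed from TAA mice by -1.92 (exact permutation p = 0.10 and adjusted p = 0.188 for each). With quantile normalization these differences were 1.33 and -0.94, again with no overlap.

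Orm3 was near the limit of detection. Its FPKM was 0.0189% to 0.222% of that of Orm1 in the same library. A small share of Orm1 reads assigned to Orm3 could therefore make up its level, and this was not tested. Orm3 had 0.540, 0.943 and 0.405 in the control libraries, 0.0398, 0.270 and 0.119 in the TAA libraries and 0.597, 0.789 and 0.857 in the recovery libraries. From the estimated depth, these values correspond to about 9.2, 22.1 and 9.0 fragments in the control libraries, 1.6, 10.7 and 4.9 in the TAA libraries and 14.4, 22.2 and 24.2 in the recovery libraries. All TAA libraries were below all others, by scaled FPKM. Orm3 fell by 1.63 with thioacetamide (adjusted p = 0.0121) and recovered mice were 1.90 above TAA mice (adjusted p = 0.00317). With a pseudocount of 1 the values were -0.50 and 0.61, under a fold change of 2, and with the same total per library the former was -1.08 (adjusted p = 0.0548, range over the alternatives 0.00197 to 0.494). The ratio of Orm3 to Orm1 overlapped between control and TAA mice (difference -1.76, exact permutation p = 0.20) but not between recovered and TAA mice (1.75, exact permutation p = 0.10, adjusted p = 0.188), and with quantile normalization it overlapped in neither comparison (-2.85 and 2.62).

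Hp encodes haptoglobin, which binds free hemoglobin, and Hpx encodes hemopexin, which binds free heme. Hp (ENSMUSG00000031722, chromosome 8, 109575128 to 109579172, minus strand) had a scaled FPKM of 1354, 1675 and 2007 in the control libraries, 848, 623 and 813 in the TAA libraries and 1154, 1462 and 1418 in the recovery libraries. The TAA libraries were below all others. Hp fell by 1.14 with thioacetamide (standard error 0.19, adjusted p = 0.00183), and recovered mice differed from TAA mice by 0.83 (adjusted p = 0.00410, under a fold change of 2). The size and sign of the fall depended on the scaling. The value was -0.50 with FPKM as deposited (adjusted p = 0.0517), -0.31 with the same total per library and 0.32 with quantile normalization (adjusted p = 0.146). It was just under a fold change of 2 without control 3 and without TAA 2 (-0.997 each). Over all alternatives the adjusted p ranged from 5.39e-04 to 1. In recovery against TAA the value was 0.26 with FPKM as deposited and 0.062 with the same total per library, and the sign turned with quantile normalization (-0.46).

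Hpx (ENSMUSG00000030895, chromosome 7, 105591613 to 105600137, minus strand) was not called in any comparison. It ranged from 1863 to 2183 in the control libraries, from 1531 to 1761 in the TAA libraries and from 2069.5 to 2297 in the recovery libraries. The log2 difference between TAA and control mice was -0.33 (95% interval -0.65 to -0.0037). It was 0.31 with FPKM as deposited, 0.50 with the same total per library and 1.18 with quantile normalization, where it was called (adjusted p = 2.59e-04, range over the alternatives up to 1), so no direction can be given for Hpx. The ratio of Hpx to Hp was 138%, 122% and 109% in the control libraries, 208%, 251% and 188% in the TAA libraries and 184%, 142% and 162% in the recovery libraries, with no overlap between any pair of groups (exact permutation p = 0.10 for each pair, adjusted p = 0.188), and none with quantile normalization.

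Lcn2 (ENSMUSG00000026822, chromosome 2, 32384633 to 32388252, minus strand) encodes a lipocalin that binds bacterial siderophores and is made by hepatocytes, neutrophils and epithelia. It had a scaled FPKM of 2.77, 4.91 and 20.4 in the control libraries, 29.2, 51.7 and 53.5 in the TAA libraries and 2.65, 13.2 and 10.4 in the recovery libraries. All TAA libraries were above all others, and control 3 was above the other controls, as for Saa1 and Saa2. Lcn2 rose by 2.70 with thioacetamide (standard error 0.66, adjusted p = 0.00998), and recovered mice differed from TAA mice by -2.58 (standard error 0.55, adjusted p = 0.00593). The rise was called in each of the 6 fits that left out 1 library, from 2.10 without control 1 to 3.51 without control 3. The drop was called in each of its 6 such fits, from -1.88 without recovery 1 to -3.01 without recovery 2. Of the 17 alternatives for each comparison, treat alone lost these calls (adjusted p = 0.134 and 0.117, range over the alternatives 3.81e-04 to 0.134 and 7.96e-04 to 0.117).

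Apcs (ENSMUSG00000026542, chromosome 1, 172893961 to 172895041, minus strand) encodes a pentraxin that is the major acute phase pentraxin of mice. It ranged from 68.2 to 80.9 in the control libraries, from 50.8 to 67.9 in the TAA libraries and from 71.9 to 101 in the recovery libraries. Its log2 difference between TAA and control mice was -0.32 (95% interval -0.61 to -0.025). It was 0.32 with FPKM as deposited, 0.51 with the same total per library and 0.31 with quantile normalization, so no direction can be given for Apcs.

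**Figure D3:**
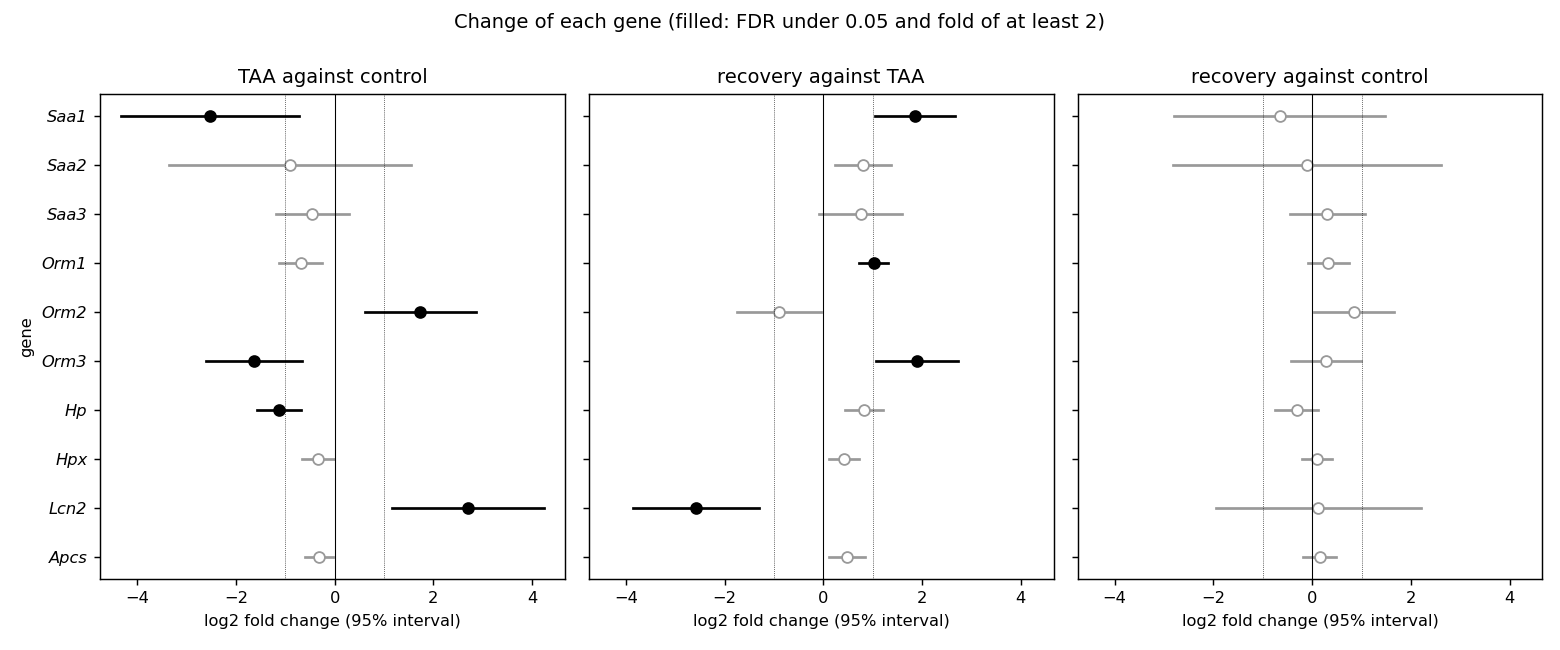
Log2 fold change of each gene in the 3 comparisons, with the 95% interval as a line and filled points for genes called at an FDR under 0.05 and a fold change of at least 2. Lcn2 and Orm2 lay above 0 in the TAA group, and Saa1, Orm3 and Hp lay below it. The direction of Orm1, Hp, Hpx and Apcs in the TAA group turned with quantile normalization. The sign of Saa3 turned only with scalings that also moved the median over all genes upward.

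The comparison of recovered with TAA mice shows which levels differed once injections had stopped. Here 3 of the 10 genes were called higher in recovery (Saa1, Orm1 and Orm3), where 7.12% of all tested genes were. Lcn2 was called lower, where 14.3% of all tested genes were. With FPKM as deposited and the same total per library, Orm1 was not called (0.46 and 0.26) and Orm2 was called lower (-1.45 and -1.65). Of all 14094 tested genes, 409 were then called higher and 3728 lower, and 305 and 4854. The median log2 fold change was 0.77 over the 10 genes and -0.0098 over all tested genes. The value of 0.77 holds for the scaling used here. Saa2, Saa3 and Hp were 0.24, 0.21 and 0.26 with FPKM as deposited. They were 0.040, 0.0074 and 0.062 with the same total per library. The sign of Orm1, Hp, Hpx and Apcs was negative with quantile normalization (-0.095, -0.46, -0.90 and -0.092). For Hpx and Apcs it was also negative with FPKM as deposited (-0.14 and -0.091) and with the same total per library (-0.35 and -0.29). With these 2 scalings the median over all tested genes was -0.55 and -0.74, so both genes stayed above the median gene. This comparison shares the TAA libraries with the comparison of TAA and control mice.

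Between recovered and control mice, 0 of the 10 genes were called by limma, where 0.993% of all tested genes were. An unadjusted p under 0.05 was found for 1 of the 10 genes, Orm2 (log2 difference 0.84, adjusted p = 0.204, and 0.49 to 1.22 with 1 library left out), and for 3242 of all tested genes. The intervals were wide for the genes that varied among controls. The 95% interval was -2.80 to 1.47 for Saa1, -2.82 to 2.60 for Saa2 and -1.94 to 2.1975 for Lcn2, which includes changes by a fold of 2 in either direction. It was -0.21 to 0.39 for Hpx and -0.18 to 0.49 for Apcs. The signs for Saa1, Saa2 and Lcn2 rested on single libraries. Saa1 was -0.66 with all libraries and 0.33 without control 3. Saa2 was -0.11 with all libraries, 1.22 without control 3 and 0.10 without recovery 2. Lcn2 was 0.13 with all libraries and -0.48, -0.078, -0.31 and -0.14 without control 1, control 2, recovery 2 and recovery 3.

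The lists that follow were chosen with earlier results of these data known. Their counts can be set beside those over all tested genes. Of these, 17% were called higher and 8.02% lower with thioacetamide, and 7.12% and 14.3% in recovery against TAA. Between recovered and control mice 0.993% were called in either direction. With thioacetamide 4382 of the 14094 genes were called higher and 421 lower with FPKM as deposited. The counts were 5476 and 330 with the same total per library, and 1534 and 1355 with quantile normalization. In recovery against TAA they were 409 and 3728, 305 and 4854, and 1198 and 1379 in the same order. The other positive acute phase genes form a list of 23 genes, of which 22 were tested and A2m was below the filter. With thioacetamide 4 were called higher and 5 lower, with a median of -0.27. The median turned with the scaling, to 0.36, 0.55 and 0.40 with FPKM as deposited, the same total per library and quantile normalization, where 6, 8 and 8 were called higher and 3 lower with each. The median over all tested genes was 0.63, 0.81 and -0.050 with these scalings. The list thus lay above the median gene only with quantile normalization. Lbp, which encodes lipopolysaccharide binding protein, had 33.3, 46.5 and 45.0 in the control libraries, 7.35, 7.93 and 10.4 in the TAA libraries and 50.9, 48.0 and 41.2 in the recovery libraries. The TAA libraries were far below all others. Lbp fell by 2.27 (adjusted p = 4.70e-05), Crp fell by 1.90 and Lrg1 fell by 1.86, and these 3 genes were called in all 17 alternatives. Itih3 (-1.40) and Itih4 (-1.10) were called lower only with the scaling used here, and Itih4 was 0.18 with quantile normalization. Steap4, Hamp (hepcidin) and Serpina3g were called higher (1.13, 1.11 and 1.06), as was Cd14, the lipopolysaccharide co-receptor (1.73, adjusted p = 0.0180). Cd14 was not called without control 2, control 3, TAA 2 or TAA 3 (1.44, 1.38, 1.67 and 1.66), and Serpina3g was not called without TAA 2 (0.95). Without control 3, Itih4 was -0.99.

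In recovery 4 of these genes were called higher than in TAA mice, Lbp (2.44), Lrg1 (1.90), Crp (1.73) and Itih3 (1.51), and 3 were called lower, Steap4 (-1.74), Il1rn (-1.28) and Cd14 (-1.08). The median was 0.46, and it was -0.10, -0.30 and -0.33 with the other scalings in the order above, where 3, 2 and 3 were called higher and 4, 4 and 5 lower. Over all tested genes the median was -0.55, -0.74 and 0.042 with these scalings. The list thus lay below the median gene only with quantile normalization. Itih3 was 0.95, 0.75 and 0.77 with those scalings and not called, and Crp was 0.97 and not called with the same total per library. Il1rn was not called without TAA 1 (-0.95), and Cd14 was not called without recovery 1 (-0.89). Serpina3g was the 1 gene called between recovered and control mice (1.13, adjusted p = 0.0194), and that call was lost without control 1, control 3, recovery 2 or recovery 3 (1.07, 1.08, 1.16 and 1.02).

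Of the 8 negative acute phase genes, 3 were called lower with thioacetamide and 0 higher, with a median of -0.57. Apoa1, Rbp4 and Igf1 fell by 1.55, 1.43 and 1.41, and the same 3 genes were called higher in recovery (2.15, 1.34 and 1.37). These counts depended on the scaling. With FPKM as deposited and with the same total per library 0 were called in either direction with thioacetamide by limma (5 and 6 at an unadjusted p under 0.05), and with quantile normalization 0 were called lower and 3 higher. The medians with these scalings were 0.066, 0.26 and -0.0061, against 0.63, 0.81 and -0.050 over all tested genes. In recovery the median was 0.70, and it was 0.14, -0.062 and -0.48 with the other scalings. Over all tested genes it was -0.55, -0.74 and 0.042 with them. With quantile normalization 3 genes were called lower in recovery, and with each of the other 2 scalings 1 was called higher and 1 lower. Serpina6, which encodes corticosteroid binding globulin, was called lower in recovered than in control mice (-1.34, adjusted p = 0.0463). Its call was lost in each fit without control 2, control 3, recovery 1, recovery 2 or recovery 3 (-1.49, -1.48, -1.41, -1.38 and -1.24), and with the same total per library (-1.28). The most abundant genes were C3 in the positive list and Alb in the negative list.

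**Figure D4:**
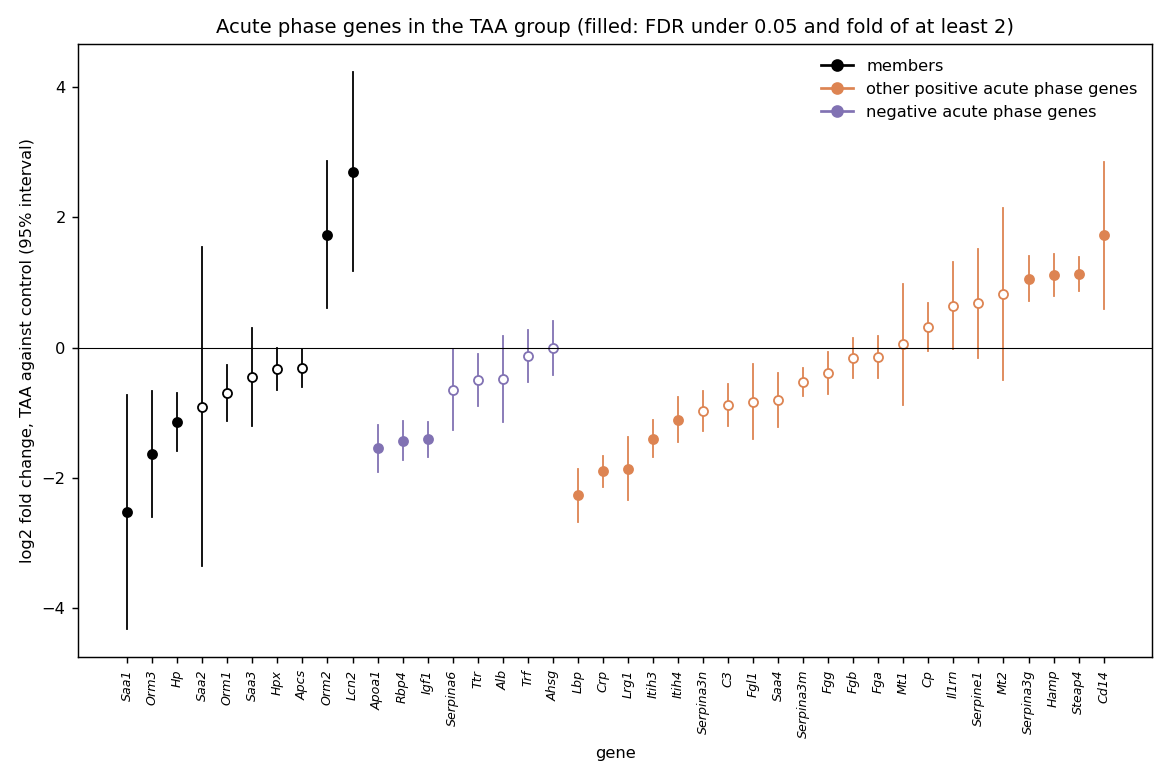
Log2 fold change between TAA and control mice for the 10 genes and the tested genes of the lists of other positive and negative acute phase genes, with 95% intervals and filled points for called genes. Values spread from Saa1 at -2.52 to Lcn2 at 2.70, and the sign of Hp, Itih4 and Apcs, among others, turned with quantile normalization.

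Among the 12 inducing cytokines, 6 were tested. Il6 was at most 0.199 in scaled FPKM in any library, Il11 at most 0.0695 and Osm at most 0.113, and Il22, Il17a and Csf3 were listed at 0 in all 9 libraries. Lif and Clcf1, cytokines of the interleukin 6 family, were called higher with thioacetamide under each scaling. With FPKM as deposited and with the same total per library 3 of the 6 were called higher, and with quantile normalization 2 higher and 1 lower. Clcf1 had 0.305, 0.526 and 0.520 in the control libraries, 2.46, 3.12 and 2.08 in the TAA libraries and 0.472, 0.564 and 0.547 in the recovery libraries. The TAA libraries were above all others, and Clcf1 rose by 2.28 (adjusted p = 1.83e-04) and was -2.06 in recovery relative to TAA (adjusted p = 9.32e-05). Lif was at or near 0 in the control and recovery libraries and had 0.420, 0.565 and 0.952 in the TAA libraries, a log2 difference of 2.70 (adjusted p = 3.02e-04). Lif passed the filter on low FPKM only through the TAA libraries, so its higher level there was in part fixed by the filter.

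In recovery Lif (-2.68), Clcf1 and Tnf (-1.29) were called lower than in TAA mice, and Il1b, which encodes interleukin 1 beta, was called higher (1.41, adjusted p = 0.00338). Il1b was not called with FPKM as deposited (0.87) or the same total per library (0.68), and Tnf was not called with quantile normalization (-0.52). Control 1 had 4.81 for Il1b, against 1.02 and 0.796 in the other controls. With quantile normalization 3 of the 6 were called higher in recovery and 2 lower, and as deposited 0 higher and 3 lower. Between recovered and control mice 0 of the 6 were called by limma (1 at an unadjusted p under 0.05). By group mean the most abundant gene of the list was Ctf1 in control mice (2.32), Clcf1 in TAA mice (2.55) and Il1b in recovered mice (4.64).

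All 15 receptor genes were tested. With thioacetamide 3 were called higher and 2 lower. Il1rap, the accessory chain of the interleukin 1 receptor, was the most abundant gene of the list in control and recovered mice, and Tnfrsf1a (34.0) was in TAA mice. Il1rap had 53.3, 44.97 and 50.1 in the control libraries, 9.82, 8.81 and 7.33 in the TAA libraries and 47.97, 48.6 and 46.3 in the recovery libraries. The TAA libraries were far below all others. Il1rap fell by 2.51 (adjusted p = 8.98e-06) and was 2.46 higher in recovery than in TAA mice. Il6ra, the interleukin 6 receptor, had 12.4, 17.1 and 14.1 in the control libraries, 4.13, 3.98 and 3.88 in the TAA libraries and 6.84, 10.8 and 12.5 in the recovery libraries. The TAA libraries were again lowest, with a log2 difference of -1.83 (adjusted p = 3.46e-05). The falls of Il1rap and Il6ra were called in all 17 alternatives.

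Csf3r, Il1r2 and Osmr were called higher with thioacetamide (1.94, 1.68 and 1.02). Osmr was under a fold change of 2 without control 1, TAA 1 or TAA 2 (0.82, 0.93 and 0.97), and Il1r2 (0.69) and Osmr (0.78) were not called with quantile normalization. For Il1r2 the filter was also passed only through the TAA libraries. In recovery Il1rap, Il6ra (1.27) and Il22ra1 (1.12) were called higher and Csf3r (-1.75) and Il1r2 (-1.74) lower. Il6ra and Il22ra1 were not called with FPKM as deposited (0.71 and 0.59), and Il1r2 was not called with quantile normalization (-0.95). As deposited, 5 of the 15 were called higher and 2 lower with thioacetamide, and 1 higher and 4 lower in recovery, while with quantile normalization 1 was higher and 2 lower with thioacetamide and 3 higher and 1 lower in recovery. Il6st lay between 21.5 and 24.97 in all 9 libraries on scaled FPKM, but as deposited it had 31.0, 28.4 and 31.5 in the TAA libraries and 19.4 to 22.1 in the others. Between recovered and control mice 0 of the 15 were called by limma (1 at an unadjusted p under 0.05).

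**Figure D5:**
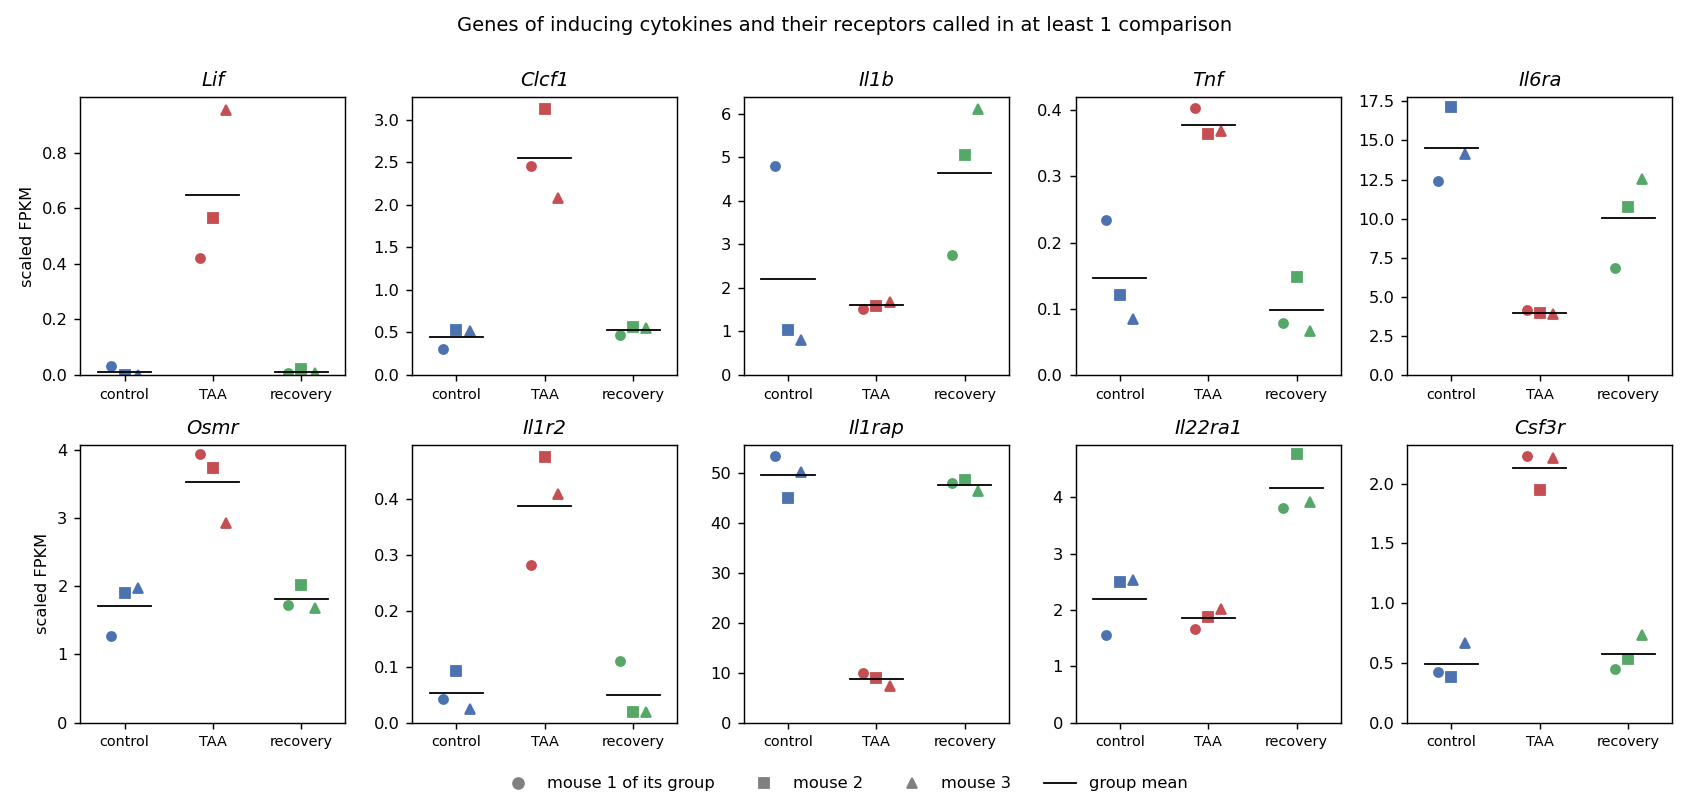
Scaled FPKM of each cytokine and receptor gene that was called in at least 1 comparison, on linear axes, with 1 point per mouse and lines for group means. Il1rap was 7.33 to 9.82 in the TAA libraries and at least 44.97 elsewhere.

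Of the 19 genes of signal transduction and transcription factors, 2 were called higher with thioacetamide, the NF-kB subunits Relb (1.95) and Nfkb2 (1.13), and 2 lower, the hepatocyte factors Cebpa (-1.48) and Hnf4a (-1.11). Over all tested genes 17% were called higher and 8.02% lower. These calls of Relb and Nfkb2 were made under each scaling, though Nfkb2 was 0.98 without control 2. Cebpa and Hnf4a were not called with FPKM as deposited (-0.84 and -0.48), the same total per library (-0.65 and -0.29) or quantile normalization (-0.76 and -0.31). In recovery Hnf4a (1.07) and Cebpd (1.03) were called higher and Nfkb2 (-1.25) and Relb (-1.19) lower. Neither Hnf4a (0.51) nor Cebpd (0.49) was called with FPKM as deposited, and Relb was not called with quantile normalization (-0.88). Hnf4a was 0.91 without recovery 1, and Cebpd was 0.93 without recovery 3 and 0.92 without TAA 2. The levels of Stat3 lay between 26.7 and 38.7, and Socs3, a target gene of Stat3, between 2.91 and 5.835. As deposited, Stat3 had 45.7, 42.5 and 44.4 in the TAA libraries and 24.0 to 34.5 in the others, and Socs3 lay between 2.61 and 4.99. The counts of the list also moved with the scaling, to 3 higher and 0 lower with thioacetamide as deposited (13 of the 19 at an unadjusted p under 0.05 in limma) and 0 higher and 3 lower in recovery (14). Hnf4a was the most abundant gene of the list, and 0 of the 19 were called between recovered and control mice by limma (9 at an unadjusted p under 0.05).

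Of the 17 genes for receptors and clearance of these proteins, 16 were tested, and Lrp1 was the most abundant. With thioacetamide 2 were called higher and 1 lower, and over all tested genes 17% and 8.02% were. With FPKM as deposited 7 of the 16 were called higher with thioacetamide and 4 lower in recovery, where 4382 and 3728 of all 14094 tested genes were, so these counts moved with those of all genes. With quantile normalization 1 was called higher and 1 lower with thioacetamide, and 3 higher and 1 lower in recovery. Tlr2 (1.43) and Fcgr1 (1.02) were called higher with thioacetamide but not with quantile normalization (0.98 and 0.56), and Cd163, the haptoglobin-hemoglobin receptor, was called lower (-1.34, adjusted p = 0.0284). Cd163 had 2.67, 7.85 and 8.49 in the control libraries and 1.79, 2.79 and 2.03 in the TAA libraries, so the groups overlapped through control 1. Its call was lost with FPKM as deposited (-0.73), with the same total per library (-0.54) and without control 2, control 3, TAA 1 or TAA 3 (-1.11, -1.05, -1.21 and -1.30). Fcgr1 was not called without control 2, control 3, TAA 1 or TAA 3 (0.79, 0.90, 0.98 and 1.0010). In recovery Cd163 (1.38) and Fpr1 (1.01) were called higher than in TAA mice. Fpr1 was not called without recovery 2, recovery 3, TAA 2 or TAA 3 (1.11, 0.65, 1.05 and 0.86). With FPKM as deposited Cd163 and Fpr1 were 0.84 and 0.48 in recovery, and not called. Between recovered and control mice 0 of the 16 were called by limma (2 at an unadjusted p under 0.05).

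Markers of other cells are given beside these results. Of the 12 neutrophil markers, 8 were tested, 8 were called higher with thioacetamide (5 with quantile normalization) and 7 were called lower in recovery (4 with quantile normalization and 8 with FPKM as deposited). Of the 8, Camp, Ltf, Cxcr2 and Mmp8 passed the filter on low FPKM only through the TAA libraries, so their higher level there was in part fixed by the filter. The other 4, S100a8, S100a9, Retnlg and Csf3r, were called higher too, and Csf3r was already counted among the receptors. The summed scaled FPKM of the list was 1.32, 4.75 and 4.78 in the control libraries, 18.9, 17.8 and 24.6 in the TAA libraries and 3.66, 5.71 and 4.9956 in the recovery libraries, and S100a8 was the most abundant. Retnlg was not called without control 1, TAA 2 or TAA 3 (0.93, 1.24 and 1.05) or with quantile normalization (0.57). Ly6g and Mpo, which define neutrophils and their precursors, were at most 0.104 and 0.212 in any library, and Ly6g was at 0 in each control and each recovery library. Ngp and Elane were also below the filter. By group mean Ngp was highest in TAA mice (0.135), while Elane was highest in recovered mice (0.130, against 0.0909 in TAA and 0.0719 in control mice). The part of neutrophils in the change of Lcn2 was not tested.

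Of the 8 cholangiocyte markers, 7 were tested, 7 were called higher with thioacetamide under each scaling and 6 were called lower in recovery (7 with FPKM as deposited). Cftr passed the filter on low FPKM only through the TAA libraries, so its higher level there was in part fixed by the filter. The sum was 19.2, 15.8 and 21.45 in the control libraries, 449, 307 and 299.65 in the TAA libraries and 28.9, 30.3 and 39.4 in the recovery libraries, mostly from Spp1. Epcam was the 1 gene called between recovered and control mice (1.65, adjusted p = 0.0310), and in each of the 6 fits that left out 1 library it was not called (1.44 to 1.83). The part of bile duct cells in the change of Lcn2 was not tested.

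Of the 8 stellate cell markers, 6 were called higher with thioacetamide and 5 lower in recovery, led by Col1a1 (5.91 and -4.92). As deposited, 7 were called higher with thioacetamide and 7 lower in recovery. Their sum was 41.4, 49.5 and 53.4 in the control libraries, 272, 210.28 and 269 in the TAA libraries and 43.1, 51.96 and 53.2 in the recovery libraries, and the most abundant gene was Reln in control and recovered mice (24.2 and 21.4) and Col3a1 in TAA mice (97.7). Des was under a fold change of 2 without TAA 3 (0.95) and with quantile normalization (0.96). Of the 12 macrophage markers, 4 were called higher with thioacetamide (Ccr2 2.61, Marco 2.04, Lyz2 1.42 and Cd68 1.21), and 7 with FPKM as deposited and with the same total per library. Their sum was 132, 179 and 182 in the control libraries, 298, 233 and 259 in the TAA libraries and 196, 214 and 282 in the recovery libraries, with Lyz2 the most abundant by group mean in control and TAA mice (45.4 and 124) and Cd5l in recovered mice (70.4). In control 2 and control 3, Cd5l was above Lyz2. In recovery Ccr2 (-2.44), Trem2 (-2.25), Gpnmb (-2.18) and Lyz2 (-1.30) were called lower than in TAA mice and Timd4 (1.23) higher, while 5 were called lower with each of the other 3 scalings. Timd4 was not called without TAA 2, TAA 3, recovery 2 or recovery 3 (1.35, 0.87, 1.18 and 0.91), with FPKM as deposited (0.70), with the same total per library (0.51), without the trend or without the filter. Trem2 and Gpnmb were not called with all 9 libraries in 1 fit. Between recovered and control mice 0 of the 8 stellate cell and 0 of the 12 macrophage markers were called by limma (2 and 1 at an unadjusted p under 0.05). The part of these cells in the values of the 10 genes was not tested.

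Of the 6 hepatocyte markers, 3 were called lower with thioacetamide (Tat -1.65, Serpina1a -1.52 and Apob -1.26) and the same 3 were called higher in recovery (1.60, 1.59 and 1.01). Alb and Ttr are also in the list of negative acute phase genes. The medians of the hepatocyte list were -1.07 and 0.94, and with quantile normalization they were 0.063 and -0.12. With FPKM as deposited 1 was called lower with thioacetamide, with the same total per library 0 by limma (4 at an unadjusted p under 0.05), and with quantile normalization 0 were called lower and 1 higher. In recovery 2 were called higher with FPKM as deposited, and 0 by limma with the same total per library and with quantile normalization (2 and 4 at an unadjusted p under 0.05). Apob had the opposite sign in both comparisons with quantile normalization (0.13 and -0.23), and in recovery it was under a fold change of 2 without TAA 1, TAA 3 or recovery 1 (0.99, 0.88 and 0.94). The summed scaled FPKM, mostly from Alb, was 37384, 39559 and 35535 in the control libraries, 28300.0, 25401 and 21406 in the TAA libraries and 43489, 44432 and 45164 in the recovery libraries. With FPKM as deposited the sums were 30899, 33835 and 31216, then 36440, 33545 and 29469, then 39104, 39687 and 40943, so that control and TAA libraries overlapped. The part of hepatocyte number in the values of the 10 genes was not tested.

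Clock genes were included because many liver genes follow the time of day. Of 14 genes, 2 were called higher (Npas2 3.03 and Arntl 2.90) and 5 lower (Dbp -3.21, Ciart -2.78, Per3 -2.24, Tef -1.57 and Nr1d2 -1.09) in recovered than in control mice. Over all tested genes 0.993% were called in this comparison. Tef was the most abundant gene of the list. Per3 was called in every fit that left out 1 library, and the others were not called in at least 1 such fit. The values in these fits were 2.76 to 2.89 for Arntl, 3.05 to 3.18 for Npas2, -3.29 to -3.17 for Dbp, -2.90 to -2.42 for Ciart, -1.63 and -1.56 for Tef and -1.09 without recovery 2 for Nr1d2, which was also not called with quantile normalization (-0.98). With thioacetamide 2 were called higher and 3 lower, led by Hlf (-1.33, and -0.71 with FPKM as deposited) and Arntl (1.29, and 0.69 with quantile normalization), and with FPKM as deposited 0 were called lower by limma (8 of the 14 at an unadjusted p under 0.05). Tef, 1 of the 3, was under a fold change of 2 without control 1 or TAA 2 (-0.95 and -0.96). With quantile normalization 0 were called higher by limma and 1 lower (9 of the 14 at an unadjusted p under 0.05). In recovery 3 were called higher than in TAA mice and 3 lower, but 2 higher and 6 lower with FPKM as deposited and 1 higher and 6 lower with the same total per library. Among the 3, Hlf, called higher at 1.12, was 0.93 without TAA 2 and 0.57 with FPKM as deposited. The summed level was 278, 258 and 280.3 in the control libraries, 167, 150.02 and 164 in the TAA libraries and 139.7, 139.95 and 117 in the recovery libraries. The time of day at collection was not used here, and its part in the values of the 10 genes was not tested.

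The genes most like each of the 10 over the 9 libraries were found among 11092 others by Pearson's r of log2 values, as a description. Lcn2 was most like Fam118a, Ubald2 and Cdk20 (r = 0.97, 0.97 and 0.95), Saa1 like Ankrd27, Stk11 and Stk16 (0.95, 0.94 and 0.93) and Saa2 like Actn4, Gtf2ird2 and Actr1a (0.92, 0.91 and 0.89). Orm1 was most like Pigv (0.98), Orm2 like Kit (0.95), Orm3 like Zc3h12d (0.98), Hp like Bloc1s5 (0.98), Hpx like Surf2 (0.98), Apcs like Gnaq (0.96) and Saa3 like Glb1l (0.90). All 9 libraries share the same 3 groups, so differences between the groups enter each r.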

How the data were processed

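The authors mapped paired-end reads of liver RNA to the mouse genome (mm10) with HISAT2 2.2.1, counted them on genes with featureCounts 1.5.0-p3 and deposited FPKM values, with 1 column per mouse. Read counts were not used here. Each library's FPKM was scaled by a median-of-ratios factor, taken over the genes above 0 in all 9 libraries. For each pair of groups, limma 3.58.1 (R 4.3.3) was fitted to log2(scaled FPKM + 0.1) of the 6 libraries, with lmFit and then eBayes with its trend option. Genes entered at a mean FPKM of 0.1 or more, and Benjamini-Hochberg adjustment covered all of them. Alternatives were other scalings, pseudocounts, filters, fits and sets of mice. For the lists, and for ratios with quantile normalization, they were added after the data had been seen. Ratios were compared by 2-sided exact permutation tests. The members and lists were chosen with earlier results of these data known. Named genes were the members, up to 5 called genes with the largest change per list and comparison, all called cytokine and receptor genes and the most abundant gene of each list. Other genes named were chosen after their values were seen.

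Depth was estimated from low values of genes with 1 annotated transcript (GENCODE M21), of which 54.6% to 61.2% were whole numbers of fragments within 0.08, where 16.0% would be by chance. For genes with several transcripts the share was at most 27.2%, so the gene lengths behind those FPKM, Saa1, Saa2, Saa3, Hp, Hpx and Lcn2 included, are uncertain, and fragments are given only for Orm3. Steps were tested on simulated data for TAA against control mice. Changes there were placed only in genes with a mean level of 1 or more, unlike Orm3. The simulated spread was below that of Saa1, Saa2 and Lcn2 among controls (SD of log2 values 1.80, 2.46 and 1.46). The simulation therefore does not cover such genes. Sequences were read with Python 3.11.15 and Biopython 1.88.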

Additional observations from a re-analysis of the deposited data

How the results depend on the processing

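Each of the 30 log2 fold changes of the 10 genes was recomputed under alternative scalings, pseudocounts, filters, fits and sets of mice, 507 values in all. Of these, 443 kept their direction and their side of the threshold, 31 were no longer called, 6 were newly called and 27 changed sign. The cause was not tested. Between TAA and control mice, 5 genes were called. The number was 3 with FPKM as deposited, 2 with the same total per library, 0 with treat against a fold of 2 and 2 to 5 with 1 mouse left out. In recovery against TAA 4 were called, and 0 with treat (4 to 5 with 1 mouse left out).

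Of all genes, 3520, 3017 and 140 were called between TAA and control mice, recovered and TAA mice, and recovered and control mice. With a pseudocount of 1 these were 1780, 1460 and 80. Requiring a mean FPKM of 1 or more, the former pair were 2204 and 1895, and with the same total per library 5806 and 5159. With treat they were 1441 and 1084, and 0 in recovery against control (88 at an unadjusted p under 0.05). Recovery against control also gave 48 genes with no filter, 235 with all 9 libraries in 1 fit, 85 without the trend and 32 to 106 with 1 mouse left out. The share of calls that were higher in the TAA group was 67.9%, and 91.2% with FPKM as deposited, 94.3% with the same total per library, 50.0% with a pseudocount of 1, 53.4% for a mean FPKM from 1 up and 53.1% with quantile normalization. In recovery against TAA it was 33.2%, and 9.89%, 5.91%, 51.3%, 48.5% and 46.5% in the same order. In recovery against control it was 58.6%, and 69.3% with FPKM as deposited and with the same total per library.

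Signs turned with the scaling. FPKM as deposited and the same total per library also moved the median over all genes. It was 0.63 and 0.81 between TAA and control mice, and -0.55 and -0.74 in recovery against TAA. Sign changes with these 2 scalings therefore include a shift common to all genes. Between TAA and control mice, FPKM as deposited gave 0.17 for Saa3, 0.31 for Hpx and 0.32 for Apcs. The same total per library gave 0.35 for Saa3, 0.14 for Orm1, 0.50 for Hpx and 0.51 for Apcs, and quantile normalization gave 0.46 for Orm1, 0.32 for Hp, 1.18 for Hpx and 0.31 for Apcs. In recovery against TAA, the values with FPKM as deposited were -0.14 for Hpx and -0.091 for Apcs. With the same total per library they were -0.35 for Hpx and -0.29 for Apcs, and with quantile normalization -0.095 for Orm1, -0.46 for Hp, -0.90 for Hpx and -0.092 for Apcs. With 1 mouse left out, Saa2 ranged from -2.01 to 0.42 in the TAA group. In recovery against control Saa1 ranged from -1.44 to 0.33, Saa2 from -1.21 to 1.22 and Lcn2 from -0.48 to 0.94.

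With the replicate number as a block, 5, 4 and 0 of the 10 genes were called, and 3517, 3026 and 17 of all genes. The deviations of mice with the same number had r from -0.070 to 0.12, against -0.11 to 0.13 for other pairs. Pairing by number was therefore not seen, but this check cannot exclude it. Orm3 was not tested where the mean FPKM had to reach 1. For the called genes of the lists, 2087 values were recomputed, as alternatives chosen after seeing the data. Of these, 1779 kept direction and call, 305 were no longer called and 3 changed sign, all with quantile normalization: Itih4 (0.18) and Apob (0.13) between TAA and control mice and Apob (-0.23) between recovered and TAA mice.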
